A study of Homo sapiens with 4 samples.

Results

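The genes described here encode the Polycomb repressive complexes and the enzymes that write or erase methylation at lysines 4 and 27 of histone H3. They were taken by gene symbol from the deposited promoter tables and make up 44 of 20242 promoters. Of these 11 belong to PRC2 (6 core and 5 accessory subunits) and 18 to PRC1 (2 RING, 6 PCGF, 4 CBX and 3 PHC subunits, and 3 subunits of variant PRC1). The other 15 are 2 H3K27 demethylases, 6 H3K4 methyltransferases, 4 of their shared core subunits and 3 H3K4 demethylases.

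JMJD3c-hESCs are SEES-3 human embryonic stem cells that carry a doxycycline (Dox)-responsive transgene for HA-tagged JMJD3c, the catalytic domain of the H3K27 demethylase JMJD3, delivered with piggyBac, and that also express the reverse Tet-transactivator. The transgene and the transactivator were thus present in all 4 libraries. H3K27me3 and H3K4me3 were each profiled by ChIP-seq in cells without Dox (−Dox) and in cells given 1 µg/ml Dox for 3 days (+Dox), with 1 library in every group. Stable lines were selected with puromycin, and which of them was sequenced is not given in the sources used here. The question addressed was how both marks differed between −Dox and +Dox at the promoters of these genes. The paper reports that Dox-treated cells began to differentiate. Effects of Dox itself, of H3K27me3 removal and of differentiation cannot be told apart in these libraries. No library was repeated, so no p-value is given, and every difference is one between 2 libraries.

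PRC2 places methyl groups on H3K27 through EZH1 or EZH2, which work only together with SUZ12 and EED. PRC1 ubiquitylates histone H2A through RING1 or RNF2. Canonical PRC1 binds H3K27me3 through a CBX protein, whereas variant PRC1 carries RYBP or YAF2 in its place. KDM6A (UTX) and KDM6B (JMJD3) remove H3K27me3, and MLL and SET1 enzymes with WDR5, ASH2L, RBBP5 and DPY30 place H3K4me3, which marks active or poised promoters. A promoter with both H3K27me3 and H3K4me3 is called bivalent and is typical of developmental genes in pluripotent cells.

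The upstream sequences of 3 members are given as examples. They are the 200 bases upstream of the deposited start in GRCh37 (the assembly behind hg19), 5′ to 3′ on the gene's strand, with every CG dinucleotide in capitals. BMI1 (chr10:22609828-22610027, plus strand) and PCGF1 (chr2:74734823-74735022, minus strand) are shown because both were bivalent in −Dox and in +Dox, and AEBP2 (chr12:19652827-19653026, plus strand) because it carried neither mark.
BMI1: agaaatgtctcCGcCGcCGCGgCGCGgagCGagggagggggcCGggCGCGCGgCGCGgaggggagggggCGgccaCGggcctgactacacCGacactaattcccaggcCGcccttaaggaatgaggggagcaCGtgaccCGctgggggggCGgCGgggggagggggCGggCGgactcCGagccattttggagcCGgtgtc
PCGF1: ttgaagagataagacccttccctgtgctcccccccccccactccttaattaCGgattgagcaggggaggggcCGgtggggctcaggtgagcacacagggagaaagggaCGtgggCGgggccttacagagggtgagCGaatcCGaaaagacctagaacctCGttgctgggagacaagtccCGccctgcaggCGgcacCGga
AEBP2: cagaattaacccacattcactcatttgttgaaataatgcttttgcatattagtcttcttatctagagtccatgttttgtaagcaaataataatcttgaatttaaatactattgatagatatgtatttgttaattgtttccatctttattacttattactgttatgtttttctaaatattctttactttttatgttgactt
The letters CG, which read the same on both strands, occurred 25 times in the BMI1 stretch, 10 times in that of PCGF1 and 0 times in that of AEBP2. The median over the 40 members with a known position was 22.5, against 14 over the 18244 promoters with one. By marks in −Dox it was 19 over bivalent promoters, 18 over those with H3K4me3 alone and 3 over those with neither mark. At least 1 CG was found in 95.6% of the 18244 promoters. AEBP2 and DPY30, an H3K4 methyltransferase subunit, were the 2 members without any, and their deposited starts lay 60601 and 16048 bp downstream of the canonical start of the gene.

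Each value is the deposited signal, namely coverage relative to library reads, added up from 3 kb before to 3 kb after the transcription start. Over all promoters it summed to 251063 for H3K27me3 −Dox, 213388 for H3K27me3 +Dox, 919251 for H3K4me3 −Dox and 896546 for H3K4me3 +Dox. A value of 20, which the study's methods take as the limit for a marked promoter, corresponded to between 15.8 and 20.6 reads. Both +Dox libraries had the same step between values (0.373), which corresponds to about 2682090 reads in each. Whether a single read total was applied to both was not tested. It would multiply all ratios of a mark by the same factor. Setting the median ratio of promoters with low signal to 1, which uses no read total, multiplied the H3K4me3 ratios by 0.941 and shifted the H3K27me3 ratios by 0.03 on the log2 scale. Ratios are plain +Dox/−Dox ratios with a 95% interval for counting error, derived from approximate reads. A member with an H3K27me3 value near 5 rests on about 4 reads, and its ratio can hardly be read. H3K4me3 was above 20 in −Dox at 11 of 12 pluripotency genes, at 3 of 7 fibroblast genes, at 5 of 5 neural and 6 of 6 endoderm or mesoderm genes (10 of the latter 11 were bivalent) and at 0 of 3 blood genes. In +Dox these counts were 11, 3, 4, 5 and 0. ChIP does not measure the transgene, so the labels could not be checked on JMJD3c itself.

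Most members carried H3K4me3 without H3K27me3 before induction, and bivalency was found mainly in PRC1. In −Dox 34 of the 44 promoters (77.3%) were H3K4me3-only and 7 (15.9%) were bivalent, whereas 54.2% and 9.42% of all promoters were. None was H3K27me3-only, and 3 (AEBP2, KMT2D and DPY30) were unmarked. The bivalent members were 6 of 18 PRC1 genes (33.3%), namely BMI1, PCGF1, PCGF5, CBX8, PHC2 and YAF2, and 1 of 11 PRC2 genes (9.09%), EZH1. None of the 15 genes for H3K4 or H3K27 enzymes and their core subunits was bivalent. The member with the highest H3K27me3 below the limit was RNF2 (16.4), and the one with the lowest H3K4me3 above it was CBX7 (21.1).

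The bivalent members lay on both sides of the middle of their class. H3K27me3 was below the class median at EZH1, PHC2 and PCGF5, and H3K4me3 was above it at PCGF1. Their median H3K27me3 signal in −Dox was 73.0, against 43.0 over all 1907 bivalent promoters, and their median H3K4me3 was 37.0 against 45.3. The 34 H3K4me3-only members had a median H3K4me3 of 72.7, against 66.4 over all 10980 promoters of that class.

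**Figure D1:**
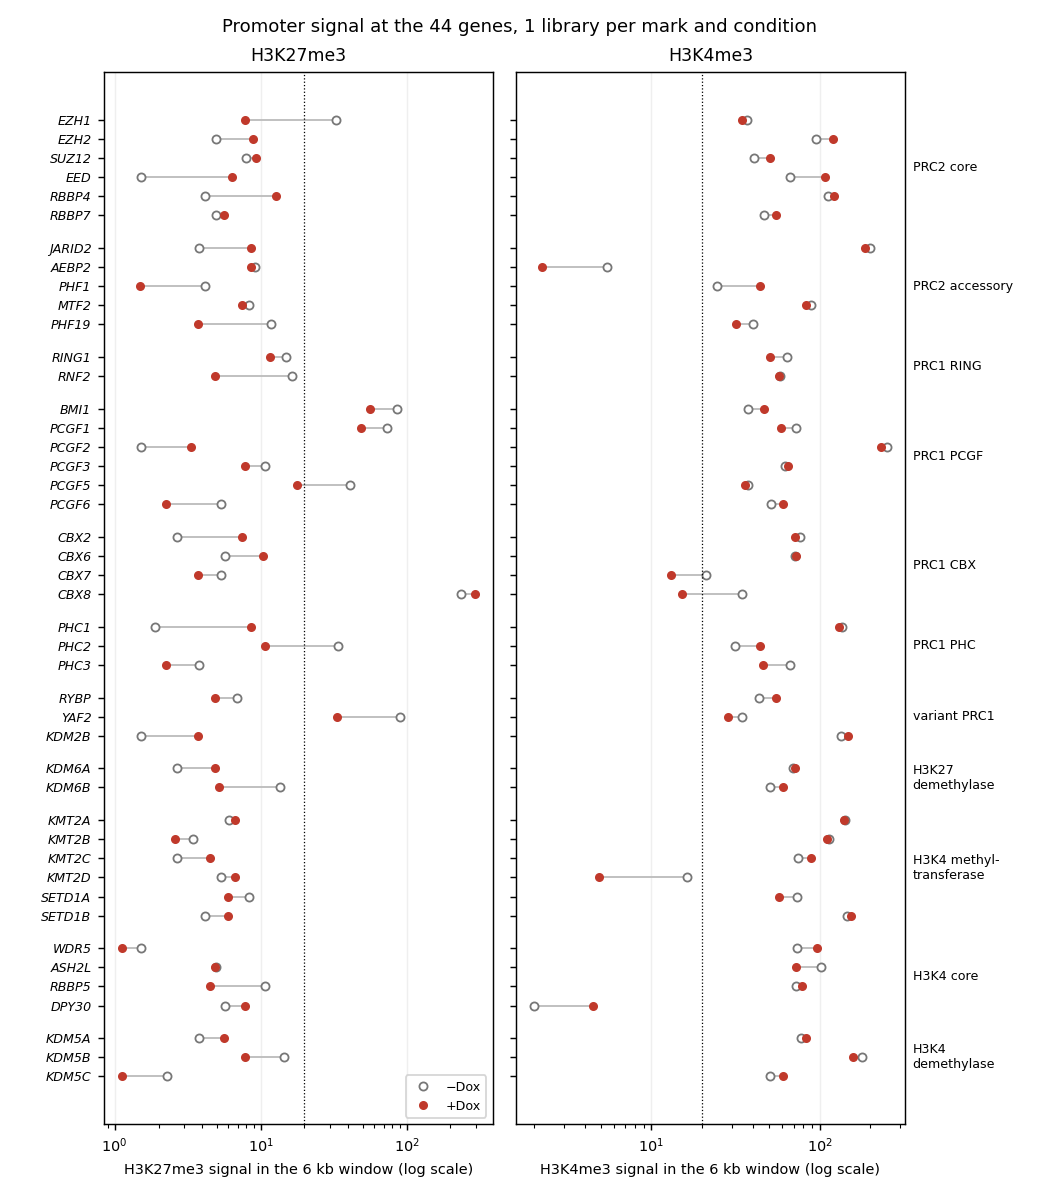
Signal of H3K27me3 (left) and H3K4me3 (right) at the promoters of the 44 genes by complex, on log scales, with −Dox as open and +Dox as filled circles, 1 library each, and the limit of 20 as a dotted line. In −Dox 7 genes lie above the limit for H3K27me3, and in +Dox 4 do.

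With JMJD3c induced, H3K27me3 signal relative to library reads was lower at 6 of the 7 bivalent members and higher at CBX8. Over all bivalent promoters 87.6% had a ratio below 1. The ratio was below 0.5 at EZH1, PCGF5, PHC2 and YAF2 (4 of 7 members, 40.8% of all bivalent promoters) and below 0.66 at these and BMI1 (5 of 7, 61.4%). The 95% interval lay below 1 at the same 5 members (48.6% of all bivalent promoters) and above 1 at CBX8 (2.15%). The counts of lower ratios are thus near the background of the class. The median log2 ratio was −1.20, against −0.81 over all bivalent promoters. The class was set on the −Dox value that is also the denominator of the ratio. Classed on +Dox values, 3 members were bivalent, with a median log2 ratio of −0.63.

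**Figure D2:**
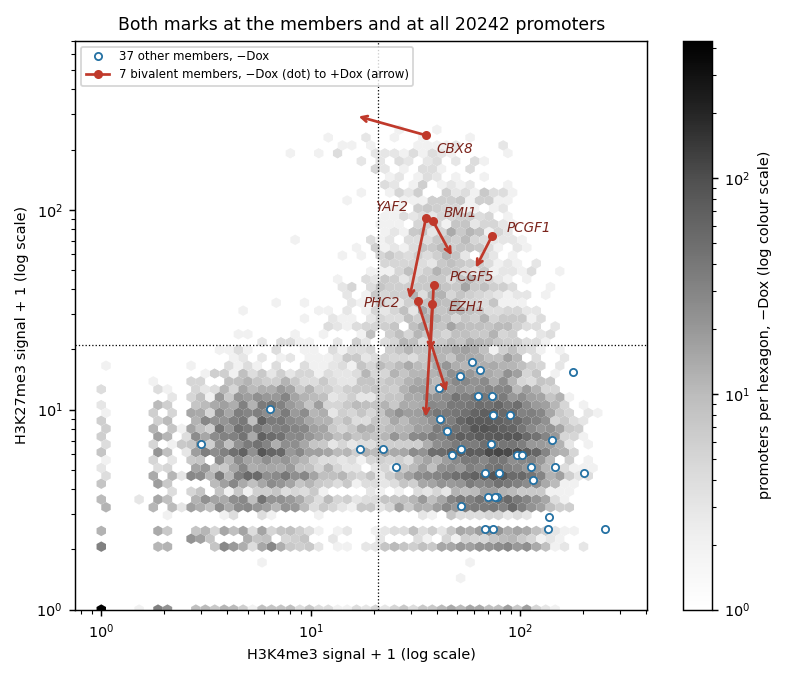
H3K4me3 signal plus 1 (x) against H3K27me3 signal plus 1 (y), both on log scales, with all 20242 promoters in −Dox as grey hexagons shaded by their number, the 37 members that were not bivalent as open circles and the 7 bivalent members as arrows from −Dox to +Dox. Dotted lines mark the limit of 20, and the arrow of CBX8 points up and to the left while the other 6 point down.

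EZH1 (ENSG00000108799), the alternative catalytic subunit of PRC2, was the only bivalent gene of this complex. Its H3K27me3 signal was 32.7 in −Dox and 7.83 in +Dox, on about 26 and 6 reads, a ratio of 0.239 (95% interval 0.0765 to 0.564). Of all bivalent promoters 7.24% had a lower ratio. H3K4me3 was 37.0 in −Dox and 34.3 in +Dox, a ratio of 0.926 (0.539 to 1.54). The promoter was thus below the limit for H3K27me3 in +Dox and was H3K4me3-only there.

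The PCGF subunits define the different PRC1 assemblies, and 3 of the 6 were bivalent. BMI1 (PCGF4, ENSG00000168283) is part of canonical PRC1 and starts at position 22610028 of chromosome 10. Its H3K27me3 signal was 86.7 in −Dox and 55.9 in +Dox, a ratio of 0.645 (0.437 to 0.963), and its H3K4me3 was 37.3 and 47.0, a ratio of 1.26 (0.778 to 2.03). BMI1 kept both marks above the limit. The interval of its H3K27me3 ratio included 1 once both libraries were brought to the same total (0.759, 0.514 to 1.13).

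PCGF1 (ENSG00000115289), a subunit of variant PRC1 at position 74734822 of chromosome 2, also remained bivalent. H3K27me3 was 73.0 in −Dox and 48.5 in +Dox, a ratio of 0.664 (0.429 to 1.01), so that its interval included 1. H3K4me3 was 72.4 and 59.3, the highest values among the bivalent members in both conditions (ratio 0.819, 0.557 to 1.20). PCGF5 (ENSG00000180628), another variant PRC1 subunit at position 92980420 of chromosome 10, had an H3K27me3 signal of 41.1 in −Dox and 17.9 in +Dox, a ratio of 0.436 (0.212 to 0.830). Its H3K4me3 was 37.6 and 36.2 (ratio 0.961, 0.573 to 1.59), and it became H3K4me3-only.

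The remaining PCGF genes carried little H3K27me3. PCGF2 (MEL18), the close relative of BMI1, had the highest H3K4me3 of all 44 members, 251.9 in −Dox and 231.2 in +Dox. Its H3K27me3 was 1.52 and 3.36, on 1 and 3 reads. BMI1 and PCGF2 were thus at opposite ends of the family for both marks in −Dox, and in +Dox BMI1 again had the most H3K27me3 and PCGF2 the most H3K4me3. PCGF3 and PCGF6 had H3K4me3 values between 51.3 and 65.2 and H3K27me3 values of at most 10.6.

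PHC2 (ENSG00000134686), a Polyhomeotic subunit that links PRC1 complexes to each other, was bivalent in −Dox only. H3K27me3 was 33.9 in −Dox and 10.8 in +Dox, on about 27 and 9 reads (ratio 0.319, 0.136 to 0.719), and H3K4me3 was 31.3 and 44.0 (ratio 1.40, 0.850 to 2.36). Of all bivalent promoters, 96.4% had a lower H3K4me3 ratio than PHC2, although its interval included 1. PHC1 and PHC3 were H3K4me3-only with H3K27me3 values between 1.90 and 8.58. PHC1 had 136 and 130 for H3K4me3, and PHC3 66.7 and 45.9, a ratio of 0.688 (0.452 to 1.05).

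YAF2 (ENSG00000015153), a subunit of variant PRC1 at position 42632038 of chromosome 12, had 90.1 for H3K27me3 in −Dox and 33.6 in +Dox, on about 71 and 27 reads. The ratio of 0.372 (0.231 to 0.591) was the lowest of the 3 members that stayed bivalent. H3K4me3 was 34.5 and 28.3 (ratio 0.822, 0.479 to 1.48). Its paralogue RYBP, which fills the same place in the complex, was H3K4me3-only, with 6.85 and 4.85 for H3K27me3 and 43.9 and 54.8 for H3K4me3.

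CBX8 (ENSG00000141570) encodes a chromodomain protein by which canonical PRC1 binds H3K27me3. It had the highest H3K27me3 ratio and the lowest H3K4me3 ratio of the 7 bivalent members. The interval of its H3K4me3 ratio overlapped those of the other 6. H3K27me3 was 234.7 in −Dox and 294.9 in +Dox, on about 185 and 236 reads, a ratio of 1.26 (1.03 to 1.53). Of all bivalent promoters 95.8% had a lower ratio. Among the 304 promoters above 20 for H3K4me3 and with 100 to 300 for H3K27me3 in −Dox, 65.8% had a ratio below 1. The upper quartile of their log2 ratios was 0.12, against 0.33 at CBX8. Both H3K27me3 values of CBX8 exceeded those of 99.9% of all promoters. H3K4me3 was 34.5 in −Dox and 15.3 in +Dox, on about 35 and 12 reads, a ratio of 0.443 (0.209 to 0.874), and 2.20% of bivalent promoters had a lower one. CBX8 was therefore the 1 member that became H3K27me3-only, a class change made by 7.24% of all bivalent promoters.

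The direction at CBX8 was the same under either scaling of the libraries. Both scalings are relative, and the paper's immunoblots showed less total H3K27me3 after 3 days of Dox. Whether the absolute amount at CBX8 rose was thus not tested. The H3K27me3 ratio was 1.48 (1.21 to 1.80) with both libraries at the same total and 1.28 (1.05 to 1.56) with a median ratio of 1 over low promoters. For H3K4me3 the ratios were 0.455 (0.215 to 0.896) and 0.417 (0.197 to 0.822). The deposited start, at position 77775332 of chromosome 17 on the minus strand, lay 4456 bp upstream of the canonical start of CBX8, which is outside the window that was summed. The values therefore describe the sequence upstream of the main promoter.

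The other CBX genes were below the limit for H3K27me3. CBX2, whose start is 23385 bp from that of CBX8 on the same chromosome, had 2.66 and 7.46 for H3K27me3, on 2 and 6 reads, and 76.1 and 71.2 for H3K4me3. The neighbouring genes thus differed in class before induction. CBX6 had 5.70 and 10.4 for H3K27me3 and 71.2 and 72.7 for H3K4me3. CBX7, the lowest of the H3K4me3-only members, had 21.1 and 13.0 for H3K4me3 (ratio 0.619, 0.248 to 1.29) and thus crossed the limit, with its deposited start 2848 bp downstream of the canonical one.

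Neighbouring windows that overlapped those of the bivalent members were read in the same way. PPHLN1 starts 211 bp from YAF2 and shares most of its reads, with 93.6 and 35.8 for H3K27me3 (ratio 0.383). COMMD3 starts 4711 bp from BMI1, and its H3K27me3 was 50.6 in −Dox and 16.4 in +Dox, a ratio of 0.324 (0.157 to 0.611). The ratio was thus lower at this partly overlapping window than at BMI1 itself, with overlapping intervals. LBX2, a homeobox gene 4379 bp from PCGF1, had 152 and 184 (ratio 1.21, 0.941 to 1.55), whereas the ratio at PCGF1 was below 1. Since these windows overlap, reads in the shared stretch counted for both genes. How much of the PCGF1 signal (73.0 in −Dox) lay in that stretch was not tested. Of the 40 members with a position, 8 had a window that overlapped another among the 18244 promoters with one. EZH1, PHC2, PCGF2 and KMT2C could not be checked.

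**Figure D3:**
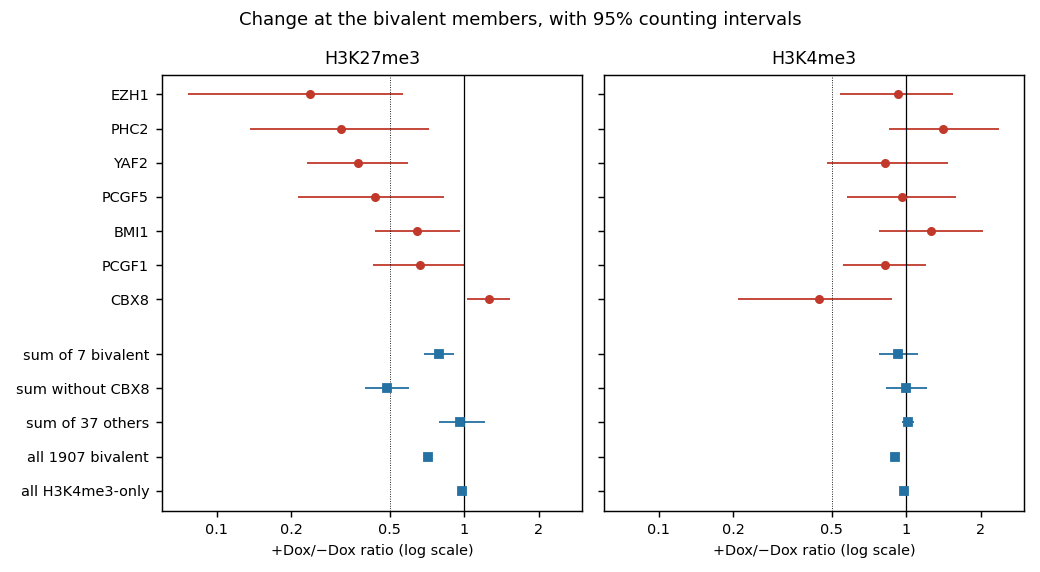
Ratio of +Dox to −Dox signal (x, log scale) for H3K27me3 (left) and H3K4me3 (right) at the 7 bivalent members (circles) and for summed signal (squares), with 95% counting intervals as lines and dotted lines at 0.5. CBX8 lies to the right of 1 for H3K27me3 and to the left of 1 for H3K4me3, and the sum of the other 6 lies at 0.488 for H3K27me3.

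Summed over the 7 bivalent members, H3K27me3 was 592 in −Dox and 469 in +Dox, a ratio of 0.793 (0.690 to 0.910), against 0.713 (0.706 to 0.721) over all bivalent promoters. CBX8 alone supplied 234.7 and 294.9 of these sums. Without it they were 358 and 174, a ratio of 0.488 (0.396 to 0.601). With both libraries at the same total the ratio of the 7 was 0.933 (0.812 to 1.07) and that of the 6 was 0.574 (0.466 to 0.707). Over the 37 other members the sums were 227 and 219, a ratio of 0.964 (0.789 to 1.21).

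By complex, the PCGF genes had a summed H3K27me3 ratio of 0.622 (0.489 to 0.802) and the CBX genes one of 1.27 (1.06 to 1.55). The CBX value is nearly that of CBX8 alone, which supplied 234.7 of 248 in −Dox and 294.9 of 317 in +Dox. The intervals of CBX2, CBX6 and CBX7 each included 1. PRC1 as a whole had 0.837 (0.738 to 0.960), near the 0.850 (0.846 to 0.857) over all promoters, and 0.592 (0.498 to 0.719) without CBX8. The intervals for PRC2 (0.861, 0.597 to 1.21), for the H3K4 methyltransferases with their core subunits (0.959, 0.623 to 1.56) and for the demethylases (0.667, 0.342 to 1.19) included 1. They also included the 0.850 of all promoters, so these sets cannot be told apart from that background.

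H3K27me3 also stayed low at the members that were not bivalent. None of these 37 exceeded 20 in +Dox, against 0.433% of all promoters that started at or below 20. The 7 H3K4me3-only members with 10 to 20 in −Dox (PHF19, RING1, RNF2, PCGF3, KDM6B, RBBP5 and KDM5B) all had lower values in +Dox, as did 88.8% of such promoters. Their ratio was below 0.5 at 4 of them, against 39.9% of such promoters. RNF2 (RING1B), the main ubiquitin ligase of PRC1, was the 1 member of this range with an interval below 1 (10.2% of such promoters), at 16.4 and 4.85, on 13 and 4 reads (ratio 0.296, 0.0719 to 0.980). Its interval included 1 under both other scalings. The upper bound was 1.15 with both libraries at the same total and 1.00 under the scaling on low promoters.

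At the lowest signals the ratios were on the other side of 1. Among the 19 H3K4me3-only members with at most 5 in −Dox, 6 had lower values in +Dox (23.2% of such promoters) and 7 a ratio above 2 (39%). PHC1, with the highest ratio (4.51), had 1 read in −Dox and 7 in +Dox, and RBBP4, a histone chaperone subunit of PRC2, had 4.18 and 12.7 (ratio 3.03, 0.845 to 18.6). The median log2 ratio of all promoters with H3K4me3 ran from 0.78 for −Dox values up to 5 to −1.01 between 20 and 50, and returned to −0.22 above 100. The members' medians in the same bands were 0.75, −1.65 (3 members) and 0.33 (CBX8 alone). Since the bands were set on the −Dox value, which is also the denominator, the lowest bands hold promoters with few −Dox reads.

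**Figure D4:**
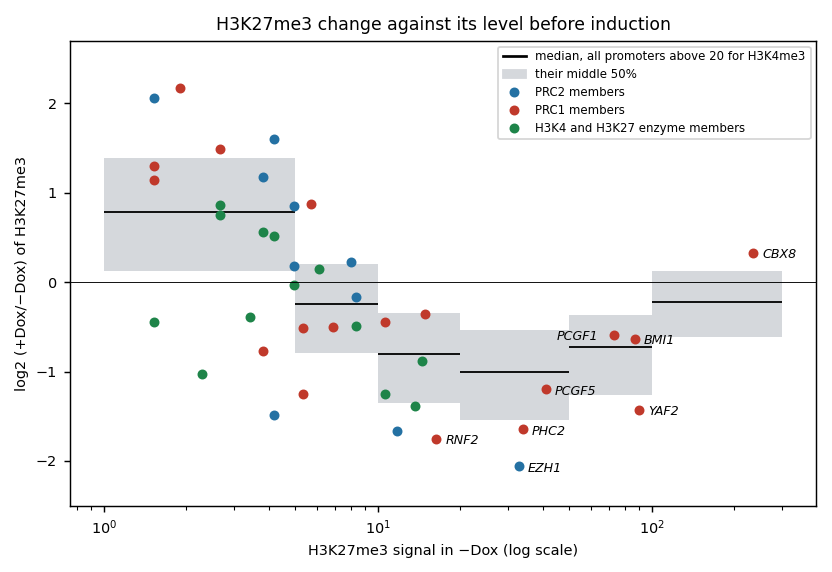
Log2 ratio of H3K27me3 in +Dox to −Dox (y) against H3K27me3 signal in −Dox (x, log scale) for the members above 20 for H3K4me3, with the median (line) and middle 50% (grey) of all promoters above 20 for H3K4me3 in 6 bands of −Dox signal. Among the bivalent members, CBX8 lies above the grey band of its signal range, and EZH1, PHC2 and YAF2 lie below theirs. Some members with less H3K27me3 also lie outside theirs, such as RNF2 below and PHC1 above.

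H3K4me3 at the members changed little. The median log2 ratio over all 44 was 0.00, with a middle 50% from −0.20 to 0.25, and that over all promoters was −0.02. The summed signal was 3281 in −Dox and 3304 in +Dox, a ratio of 1.01 (0.957 to 1.06). Ratios below 0.66 were found at 4 members (AEBP2, CBX7, CBX8 and KMT2D; 11.7% of all promoters) and above 1.5 at 3 (EED, PHF1 and DPY30; 11.6%). The interval lay below 1 at CBX8, KMT2D and ASH2L (3 of 44, against 3.06% of all promoters) and above 1 at EED and PHF1 (2 of 44, against 1.73%). A lower H3K27me3 signal at the bivalent members did not come with a like shift in H3K4me3, whose ratios at the 6 with less H3K27me3 ranged from 0.819 to 1.40 and summed to 0.995 (0.826 to 1.21).

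Among the core genes of PRC2, EED was the 1 whose H3K4me3 ratio had an interval that excluded 1. EED (ENSG00000074266), which binds H3K27me3 and stimulates the complex, had 67.0 in −Dox and 107 in +Dox, on about 69 and 85 reads, a ratio of 1.60 (1.15 to 2.22). EZH2, the main catalytic subunit, had 95.7 and 120 (1.26, 0.937 to 1.68), and SUZ12, which holds the complex together, 40.5 and 50.7 (1.25, 0.778 to 1.94). Values in +Dox were higher at 5 of the 6 core genes, the exception being EZH1, and at 43.1% of all promoters above 20 for H3K4me3 in −Dox. The summed ratio was 1.23 (1.06 to 1.41), and 1.15 without EED. With a median ratio of 1 over low promoters its interval included 1 (1.16, 0.999 to 1.33).

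Apart from EZH1, the core genes were below the limit of 20 for H3K27me3 in both conditions. EZH2 had 4.94 and 8.95, SUZ12 7.99 and 9.32, EED 1.52 and 6.34 (on 1 and 5 reads), and RBBP7 4.94 and 5.59. RBBP4 was given above. The intervals of all 5 ratios included 1 at these depths.

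Of the accessory subunits, which steer PRC2 to its sites, JARID2 had the highest H3K4me3, at 200.3 and 186, and AEBP2 the lowest, at 5.41 and 2.24. PHF1, which binds CpG islands, had 24.5 and 44.0 (1.80, 1.05 to 3.15), on about 25 and 35 reads, and its interval included 1 under the scaling on low promoters (0.990 to 2.97). Its paralogues had intervals that included 1, MTF2 with 88.3 and 83.1 (0.941, 0.672 to 1.30) and PHF19 with 39.9 and 31.7 (0.794, 0.459 to 1.33).

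Neither H3K27 demethylase gene was bivalent. KDM6A (UTX) had 2.66 and 4.85 for H3K27me3 and 69.0 and 71.2 for H3K4me3 (ratio 1.03, 0.719 to 1.49). KDM6B, the endogenous gene for JMJD3, had 13.7 and 5.22 for H3K27me3, on 11 and 4 reads (ratio 0.381, 0.0831 to 1.21). Its H3K4me3 was 50.4 and 60.4 (1.20, 0.789 to 1.80). The interval of each of these 3 ratios included 1, and the deposited start of KDM6B lay 5687 bp downstream of the canonical one. Variant PRC1 also holds KDM2B, a CpG-binding demethylase, which had 134.5 and 147 for H3K4me3 and 1.52 and 3.73 for H3K27me3.

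The H3K4 methyltransferase genes were H3K4me3-only with 1 exception. SETD1B, a SET1-type enzyme, had the highest H3K4me3 of the group, at 145 and 153, and KMT2A (MLL1) was close to it, at 141 and 139. KMT2D (MLL4), which acts mostly at enhancers, had the lowest, at 16.2 and 4.85, on about 17 and 4 reads, a ratio of 0.298 (0.0744 to 0.932). Its deposited start was the canonical one, and H3K27me3 was low there too (5.32 and 6.71), so the gene was unmarked in both conditions. KMT2C, its closest relative, had 74.7 and 88.4 for H3K4me3.

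Among the subunits shared by these enzymes, ASH2L had the highest H3K4me3 in −Dox, at 101 against 72.0 in +Dox, on about 104 and 57 reads (ratio 0.709, 0.504 to 0.988). With both libraries at the same total the interval of ASH2L reached 1.01. WDR5, which presents the histone tail, had 73.0 and 96.6 (1.32, 0.953 to 1.85), and RBBP5 72.4 and 79.0. DPY30 had the lowest, at 1.99 and 4.47, on 2 and 4 reads, so its ratio of 2.24 (0.370 to 28.6) cannot be read. Of the H3K4 demethylases, KDM5B had the highest H3K4me3 (178 and 158) and KDM5C, the X-linked one, the lowest (51.0 and 60.8). KDM5A had 77.8 and 83.1.

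Median CpG content was ordered by class at the members as over all promoters, but on few members. The median ratio of observed to expected CpG in the window was 0.657 at the 5 bivalent members with a position (range 0.386 to 0.920), 0.582 at 32 H3K4me3-only members and 0.326 at the 3 unmarked ones. Over all promoters these medians were 0.545, 0.494 and 0.248. Of the 3 unmarked members, AEBP2 and DPY30 (0.298 and 0.326) had windows that did not reach the canonical start. KMT2D, at its canonical start, had 0.490, inside the range of the H3K4me3-only members (0.351 to 0.897). BMI1, at 0.920, was the highest of all members, and PCGF1, at 0.386, was the lowest of the bivalent ones. CpG content among the bivalent members thus spanned nearly the whole range of the members, and the classes overlapped.

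**Figure D5:**
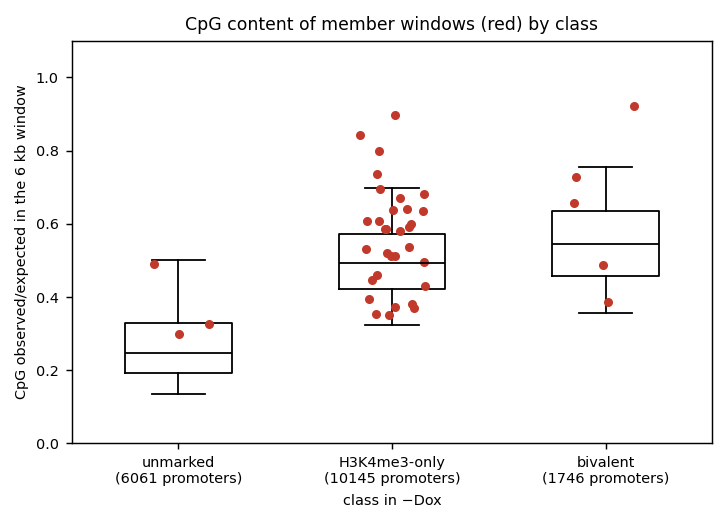
Ratio of observed to expected CpG dinucleotides in the 6 kb window (y) by class in −Dox (x), with members as red dots and all promoters as boxes (median and middle 50%, whiskers from the 5th to the 95th percentile). The unmarked members AEBP2 and DPY30 (0.298 and 0.326) lie below all other members, and the bivalent and H3K4me3-only members overlap.

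Other genes of these pathways, which are no members, were read from a list of 43 symbols, of which 41 were found. Of these 8 (19.5%) were bivalent and 29 H3K4me3-only in −Dox. H3K27me3 was above 20 in either condition at 9, lower in +Dox at 8 of them and below 0.5 of the −Dox value at 7 (40.8% of all bivalent and 21.5% of all promoters). AUTS2, a subunit of a PRC1 variant with activating function, had 108 and 30.2, a ratio of 0.279 (0.169 to 0.442). BCORL1, a corepressor of variant PRC1, had 38.0 and 8.20 (0.216, 0.0852 to 0.534), and SCML2, a PRC1-associated protein and the 1 H3K27me3-only gene of the list, 31.9 and 5.22 (0.163, 0.0398 to 0.456). AUTS2 was the larger change in signal and BCORL1 and SCML2 the larger in proportion.

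The MBT-domain genes SFMBT2 and L3MBTL1 had ratios of 0.375 and 0.440, and C17orf96 (EPOP), a PRC2 accessory subunit, had 0.420. The ASXL genes encode partners of the H2A deubiquitinase BAP1, and 2 of them were bivalent. ASXL1 had 21.3 and 8.20 (0.385, 0.142 to 1.03), and ASXL3 had 28.5 and 19.0 (0.667, 0.324 to 1.35). H3K4me3 ratios were below 0.66 at 0 and above 1.5 at 5 of the 41 genes, against 11.7% and 11.6% of all promoters.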

How the data were processed

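ChIP-seq libraries (4 libraries, 1 per group) were sequenced by the authors as single-end reads on a MiSeq and mapped to hg19, and mitochondrial reads were discarded. The submitters' processing notes name CASAVA 1.4 and Bowtie2. The deposited signal is ngs.plot coverage at 1 transcript per gene. Whether it was also scaled to density downstream of transcription ends is not given in the sources used here, and no input was used here.

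Every deposited value was a whole multiple of a step (0.380, 0.373, 0.285 and 0.373 for H3K27me3 −Dox, +Dox, H3K4me3 −Dox and +Dox), taken as 1 read at 1 data point. A whole read was taken to span 3.34, 3.35, 3.41 and 3.37 steps in the same order. This was estimated from promoters with values of 3 or 4 steps, which were taken to hold 1 read. It gave about 197558, 170932, 945917 and 713752 reads in the windows. The 95% intervals are exact Clopper-Pearson bounds on the share of approximate reads in +Dox. They were tested on simulated reads that held counting error only, which checks the calculation and not its fit to these libraries. The intervals cover counting error only, and PCR copies were not marked. Python 3.11.15, pandas 2.3.3 and scipy 1.17.1 were used.

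Transcript identifiers matched GENCODE 44 on GRCh37 for 18244 promoters (90.1%) and 40 members, and positions of EZH1, PHC2, PCGF2 and KMT2C were not analysed here. The members and lists were chosen with earlier results of these data known. Named with all values were members above 20 for H3K27me3 or with an interval that excludes 1, EZH2, EED, SUZ12, KDM6A and KDM6B, and the highest and lowest H3K4me3 of each group; others were named after their values were seen. Of the other pathway genes those above 20 for H3K27me3 were named, except 1 that is not reported here. Alternatives were other scalings, a pseudocount of 5, class limits of 10 and 30, classes from +Dox values, canonical starts, 1 promoter per symbol and, chosen after seeing the data, leaving out CBX8 or EED.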

Additional observations from a re-analysis of the deposited data

How the results depend on the processing

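Of 62 summary values under alternatives, 47 stayed close and 15 moved, and 108 of 108 ratios of named members (23 results) stayed within their counting interval. These tallies include alternatives that could not move a value. Taking 1 promoter per symbol changed no value, and canonical starts leave the ratio of a single gene as it is. The scaling on low promoters took the H3K4me3 ratio of KDM6A from 1.03 to 0.971 and the median log2 H3K4me3 ratio of all members from 0.00 to −0.09. The 7 bivalent members became 14 at a class limit of 10, 3 with classes from +Dox values and 4 with starts within 1000 bp of the canonical one. Those with an H3K27me3 ratio below 0.5 (4) became 8, 1 and 2, and those below 0.66 (5) became 10, 2 and 3. The summed H3K27me3 ratio of the bivalent members (0.793) was 0.933 with libraries at the same total, 0.552 with +Dox classes, 0.536 with canonical starts and 0.488 without CBX8. The last 3 leave out CBX8 by construction, and canonical starts also EZH1 and PHC2, whose position was not assigned. Members with an H3K4me3 ratio outside 0.66 to 1.5 (7) numbered 4 with a pseudocount of 5 and 3 with canonical starts. The median log2 H3K27me3 ratio of bivalent members (−1.20) ranged from −1.31 without CBX8 to −0.63 with +Dox classes. All its values counted as close because its interval, −2.06 to 0.33, spans all 7 members. The same-total scaling shifts every H3K27me3 log2 ratio by 0.23 and the low-promoter scaling every H3K4me3 one by −0.09. Under them PHC1 gained an H3K27me3 interval above 1 and PHC3 an H3K4me3 interval below 1 (0.647, 0.425 to 0.986). No paired analysis was possible because every mark and condition has a single library. Signal relative to library reads does not show a genome-wide loss, and below about 16 reads single ratios have wide intervals.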
